A study of Mus musculus with 9 samples.

Results

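NIC tumors were compared with control cells on the 3 arrays titled NIC Tumor 1 to 3 and the 3 titled Control 1 to 3, which are 6 of the 9 mouse arrays of a series concerned with NOTCH1 overexpression and T cell acute lymphoblastic leukemia (T-ALL). The arrays were chosen by title and no measured value entered the choice. The comparison covered 13296 of the 18193 genes that the platform names with 1 symbol, those bright enough to test. RNA came from sorted cells on 1 Affymetrix array per sample, and the values are log2 signals as deposited, so a difference of 1 is a 2-fold difference. For all groups the labels do not give strain, allele, age, promoter, tissue or the population that was sorted, and NIC stands there without explanation. Whether each array stands for its own animal is not given either, so p-values measure only the spread between these samples, which may be technical. The third group of the series, 3 arrays titled Abnormal non-malignant, serves below only as a reference for a few genes.

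Notch1 is a receptor on early T cell progenitors. Binding of a ligand releases its intracellular domain, which joins the DNA-binding protein RBPJ and switches on targets such as Hes1, Dtx1 and Il2ra. The pathway commits progenitors to the T lineage in the thymus, is turned down as thymocytes reach the CD4+CD8+ stage, and is one of the most often mutated pathways in T-ALL, where Myc is among its main targets.

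The CD3 subunits, which define T cells, were bright in both groups. Cd3e lay at 11.97 to 12.16 in controls and at 11.99, 11.76 and 11.86 in NIC Tumor 1 to 3, and neither it, Cd3d nor Cd3g passed the test. The tumors varied more than the controls: the root mean square of the SD over genes was 0.49 in tumors and 0.27 in controls. The array probe sets for 18S ribosomal RNA, which a poly(A)-primed preparation should hold little of, moved with NIC Tumor 3. The middle probe set read 5.48, 5.54 and 8.36 in Control 1 to 3, 5.60 and 7.80 in NIC Tumor 1 and 2, and 11.80 in NIC Tumor 3. The beta-actin difference between 3′ and 5′ probe sets, a sign of RNA breakdown when large, was 0.11 to 0.46 in controls and 0.10 to 0.22 in tumors, with NIC Tumor 3 the lowest. The part of the 18S signal in any result below was not tested.

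Of the 13296 genes, 500 (3.76%) were higher and 341 (2.56%) lower in NIC tumors, together 6.33% (limma, Benjamini-Hochberg adjusted p under 0.05). Of these genes, 393 of the higher and 290 of the lower differed at least 2-fold, and in all 841 the 3 tumors lay beyond all 3 controls. Over all genes, 2416 (18.2%) had the 3 tumors above and 1899 (14.3%) had them below every control, and the median difference was 0.06. After centring each array on its median, 532 genes were higher and 579 lower, so the split between directions rests on how the arrays are scaled. The number of calls also changed when 1 array was left out, which leaves the fit fewer degrees of freedom. How far a lost call comes from that or from the array itself was not tested. Without Control 1, 2 or 3, the count fell to 113, 120 or 88, without NIC Tumor 2 or 3 to 273 or 489, and without NIC Tumor 1 it rose to 2483. A core of 70 genes, 43 higher and 27 lower, was called in all 6 of these fits. Of the 841, 837 kept their direction in each fit that tested them. Their groups do not overlap, so direction could not turn on the same probe set, and this count is no test of stability. Below, a gene is said to have held throughout when it belongs to these 70, and "rose" or "fell" means that it passed the test on all 6 arrays. Each list count below stands beside the shares over all genes, 3.76% higher and 2.56% lower. In bulk RNA, more or fewer cells of a type and more or less RNA per cell cannot be told apart.

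The gene with the largest rise was Dsp, desmoplakin, which ties keratin filaments to desmosomes in epithelial cells. It lay at 3.51, 3.70 and 3.48 in Control 1 to 3, below the 40th percentile of the array on each, and at 11.52, 10.06 and 9.28 in NIC Tumor 1 to 3. The difference was 6.72 (SE 0.51, limma adjusted p = 0.00301), or 5.09 with the control level set at that percentile. Dsp was thus dim on every control and bright on every tumor. Epas1, a hypoxia-inducible transcription factor, was 4.05, 4.80 and 3.98 in controls and 10.66, 9.26 and 9.13 in tumors. The rise was 5.41 (SE 0.44, limma adjusted p = 0.00301). Epas1 too was below the 40th percentile on every control, and with the control level set there the rise was 4.48. Another probe set of Epas1 differed by 2.85. The metalloprotease Adam19 rose by 5.02, and Plac8, which encodes a small cysteine-rich protein, rose by 4.90. Parm1 lay at 5.32 to 5.71 in controls and at 9.74, 9.19 and 10.25 in tumors, a rise of 4.21 with adjusted p = 0.00248. Wdr25 rose by 4.23, Esm1, a secreted endothelial proteoglycan, by 4.52 and Exoc3l4 by 4.11. Esm1 was also below the 40th percentile on every control, and its rise was 3.58 with the control level set there. NIC Tumor 2 was the lowest of the 3 tumors for 9 of the 12 largest rises. Dsp, Il2ra, Epas1, Dtx1, Mycn, Heyl, Wdr25 and Parm1 held throughout. Esm1 and Exoc3l4 lost the call without any 1 of the controls or without NIC Tumor 3 (highest limma adjusted p 0.0977 and 0.0854), Adam19 without Control 1 or 3 and Plac8 without Control 3.

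**Figure D1:**
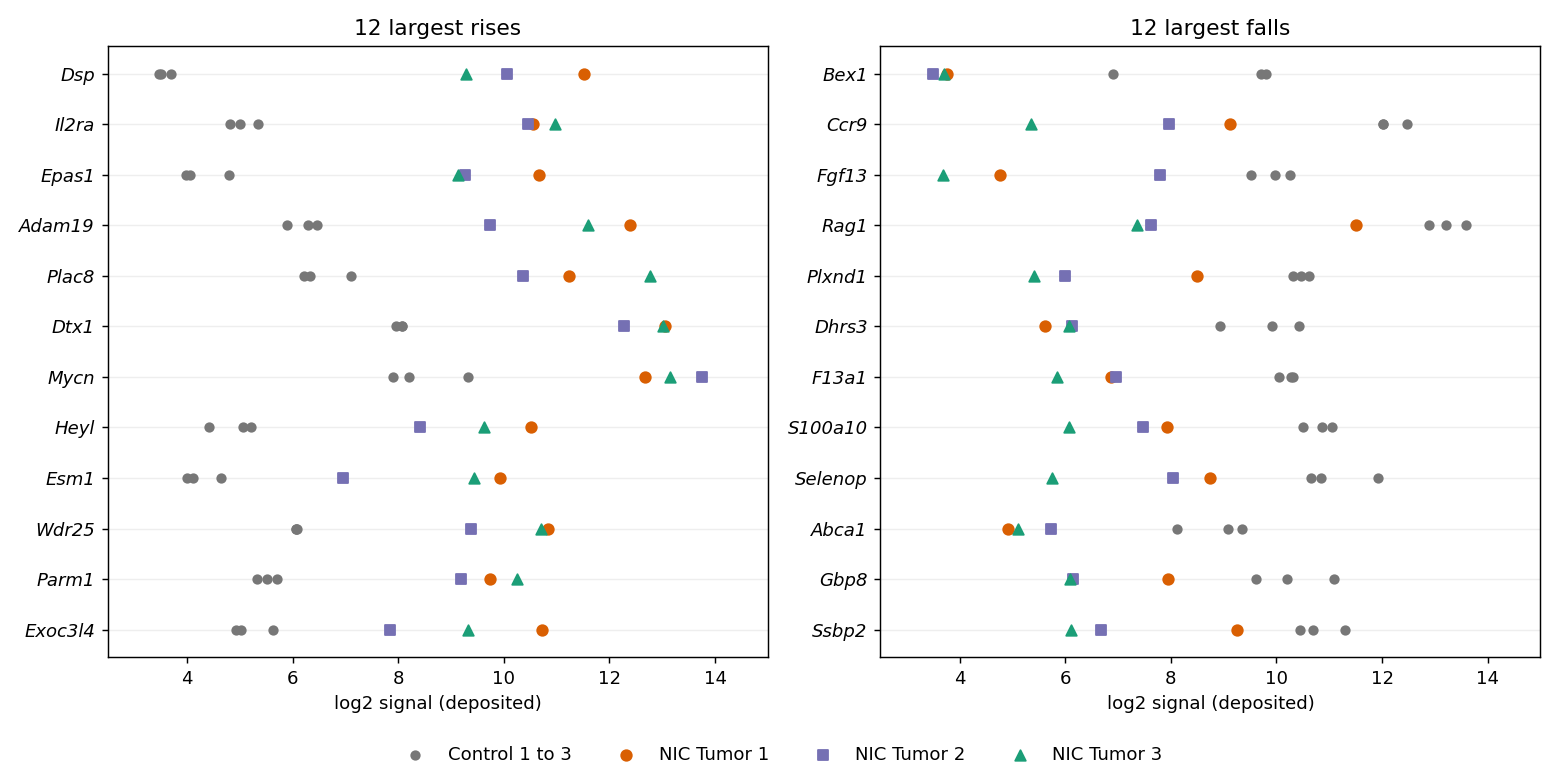
Deposited log2 signal of the 12 called genes with the largest rise (left) and the 12 with the largest fall (right) in NIC tumors. Grey points are the 3 controls and coloured symbols the 3 tumors; in each gene the groups do not overlap, while the tumors differ by up to 4.14 among themselves, in Rag1.

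The largest fall was that of Bex1, a small adaptor protein of neural and progenitor cells. It lay at 9.71, 6.90 and 9.80 in Control 1 to 3 and at 3.77, 3.49 and 3.70 in NIC Tumor 1 to 3, a difference of -5.15, or -3.58 with the tumor level set at the 40th percentile. Only the 3 controls exceed that percentile among the 9 arrays, so Bex1 entered the test through the group in which it is high, and its values are given as a description. Of the called genes, 6 lower ones passed the filter through the controls alone and 4 higher ones through the tumors alone. Several of the largest falls were genes that CD4+CD8+ thymocytes express strongly, among them Ccr9, Rag1 and Plxnd1, described below. Dhrs3, a retinal reductase, was 8.93, 10.42 and 9.92 in controls and 5.62, 6.13 and 6.08 in tumors, a difference of -3.81 with adjusted p = 0.00527. F13a1, coagulation factor XIII subunit A, was 10.05 to 10.32 in controls and 6.86, 6.96 and 5.85 in tumors, a difference of -3.66 with adjusted p = 0.00346. Abca1, which exports cholesterol from cells, was 9.35, 9.09 and 8.12 in controls and 4.92, 5.74 and 5.10 in tumors, a difference of -3.60 with adjusted p = 0.00542. These 3 genes were evenly low across the tumors and held throughout. In contrast, Fgf13 (4.77, 7.80 and 3.68 in tumors), Selenop (8.75, 8.04 and 5.76) and Ssbp2 (9.26, 6.67 and 6.11) fell to different depths. Those 3, with Gbp8, lost the call without any 1 of the controls and without 1 or 2 of the tumors, and S100a10 lost it without any 1 control. Bex1 was not tested with a control left out, since it then no longer passed the brightness filter, and lost the call without NIC Tumor 2.

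Taken 1 tumor at a time, a gene was counted when it differed at least 2-fold from the control mean and lay outside the range of the 3 controls; with 1 array each, these counts carry no test. NIC Tumor 1 had 575 genes higher and 375 lower, NIC Tumor 2 had 1027 and 952, and NIC Tumor 3 had 1051 and 1863. For scale, each control differed at least 2-fold from the mean of the other 2 in 33 to 135 genes upward and 38 to 178 downward. NIC Tumor 1 was the closest to the controls. Of the 1700 genes higher in any tumor, 260 (15.3%) were higher in all 3, and of the 2066 lower in any tumor, 233 (11.3%) were lower in all 3. NIC Tumor 3 alone accounted for 994 (48.1%) of the lower genes, and it carried the most 18S signal of the 6 arrays. On the 5′, middle and 3′ 18S probe sets NIC Tumor 3 read 9.40, 11.80 and 11.61. Abnormal non-malignant 3 read 12.52, 9.01 and 10.58 on them, and Abnormal non-malignant 2 read 7.01, 6.40 and 7.75. Those non-malignant arrays had 0 genes more than 2-fold apart from each other. A link between 18S signal and lower genes was not tested. NIC Tumor 2 and 3 shared 566 lower genes that NIC Tumor 1 did not.

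**Figure D2:**
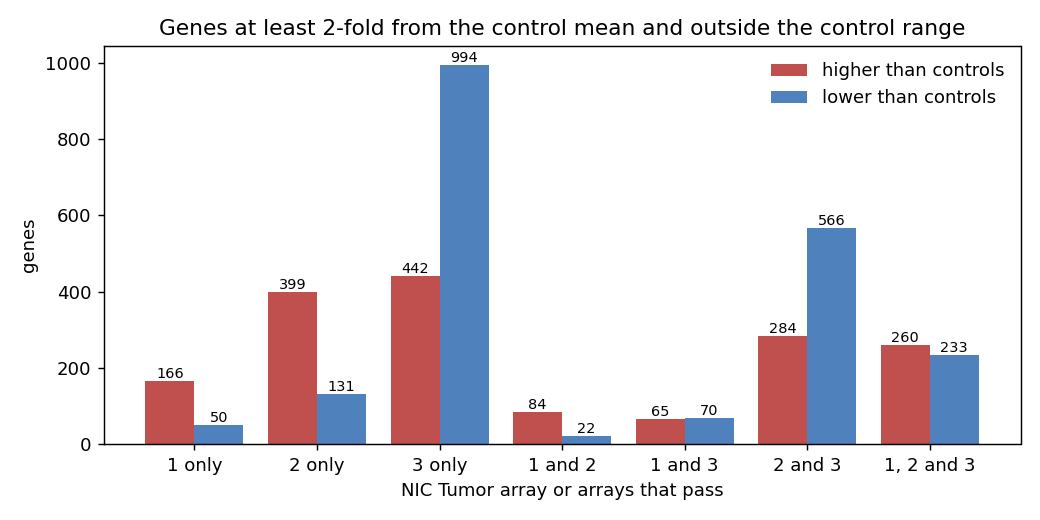
Number of genes at least 2-fold from the control mean and outside the control range, by the tumor or tumors in which they pass. The tallest bar is the 994 genes lower in NIC Tumor 3 only, while 260 genes are higher and 233 lower in all 3 tumors.

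Among the direct Notch targets, 6 of 13 rose and none fell, with a median difference of 0.71 against 0.06 over all genes. Dtx1, a Notch-induced ubiquitin ligase, lay at 8.08, 7.96 and 8.07 in Control 1 to 3 and at 13.06, 12.28 and 13.02 in NIC Tumor 1 to 3. Nrarp, a feedback inhibitor of the Notch complex, was 6.96, 7.22 and 7.11 in controls and 10.48, 10.23 and 12.13 in tumors, a rise of 3.85 (SE 0.47, limma adjusted p = 0.00935), and was highest in NIC Tumor 3. Notch3, itself a Notch1 target, was 8.88, 8.14 and 9.10 in controls and 11.17, 10.37 and 9.96 in tumors, a rise of 1.79 with adjusted p = 0.0399. For all 6 genes that rose the tumors lay above every control, but the size of the rise differed by tumor. Heyl and Hes1, transcriptional repressors, were lowest in NIC Tumor 2, at 8.42 against 10.52 and 9.62 for Heyl and 8.92 against 10.14 and 10.02 for Hes1. The other 7 members did not pass: Gata3 (-1.28) and Igf1r (-1.22) lay lower, and Hey1 lay higher by 0.71. Il2ra, Dtx1, Hes1 and Heyl held throughout, Nrarp lost the call without Control 1 or 3, and Notch3 lost it without any 1 control or NIC Tumor 2 (limma adjusted p up to 0.126). Dtx1 has a second, dimmer probe set that differed by -0.54, so its value rests on 1 probe set. Of the 22 receptors, ligands and processing factors of the pathway, only Notch3 rose and none fell.

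On the probe set used, Notch1 itself separated the tumors rather than the groups. It lay at 9.805, 9.999 and 10.337 in controls and at 12.920 in NIC Tumor 1, 9.001 in NIC Tumor 2 and 10.807 in NIC Tumor 3. NIC Tumor 1 was thus at the level of the non-malignant arrays (12.87 to 12.97), and NIC Tumor 2 below every control, while Notch targets were raised in both. The group difference was 0.86 (SE 0.86, limma adjusted p = 0.55). Another probe set of Notch1 that passed the brightness filter differed by 1.54, so the size of the difference depends on the probe set. A set of 39 genes was at least 2-fold higher in 1 tumor and at least 2-fold lower in another, each time outside the controls, and in 20 of them NIC Tumor 1 was the higher and NIC Tumor 2 the lower. Ptcra, the pre-T cell receptor alpha chain, was 8.35, 8.91 and 8.52 in controls and 10.30, 7.39 and 6.39 in the tumors. Trib2, a pseudokinase that acts as an oncogene in acute leukemias, was 9.51, 10.31 and 9.74 in controls and 11.64, 7.87 and 9.49 in tumors. Lmo4, a LIM-domain adaptor, was 8.84, 9.42 and 9.64 in controls and 11.09, 7.29 and 10.47 in tumors. Trib2 was chosen after its values were seen. In all 4 genes NIC Tumor 1 stood above every control and NIC Tumor 2 below, and none passed the group test.

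Some genes marked a single tumor. NIC Tumor 1 stood apart from the other tumors in keeping a high level of Dntt, the terminal transferase that adds bases to V(D)J joins, with 11.98 against 5.40 and 7.56 (controls 12.94 to 13.58). Its interferon-inducible Ifi202b was 10.36 against 5.03 and 5.24 (controls 4.57 to 5.07), and its ceramide synthase Cers6 9.26 against 4.58 and 4.64 (controls 8.59 to 9.22). In the other direction, metallothionein Mt1 was 5.55 in NIC Tumor 1 and 10.20 and 9.16 in NIC Tumor 2 and 3 (controls 4.87 to 5.13). NIC Tumor 2 alone had a high level of Vim, the intermediate filament vimentin, with 13.98 against 10.39 and 9.89 (controls 9.51 to 10.43). Carbonic anhydrase Car2 was 10.15 there, against 6.45 and 6.26 in the other tumors. NIC Tumor 2 lacked the rise of Trgv1, a T cell receptor gamma variable segment, which was 6.47 there and 10.72 and 9.95 in NIC Tumor 1 and 3 (controls 6.30 to 6.77). The tumor necrosis factor receptor family member Tnfrsf19 rose by 4.10 (limma adjusted p = 0.0453) with 10.04, 6.48 and 9.90 in the tumors, and lost the call without any 1 control or NIC Tumor 3. NIC Tumor 3 alone was high in Batf, an AP-1 family factor of activated lymphocytes, with 12.45 against 8.25 and 9.30 (controls 7.73 to 8.22), and in the nuclear receptor Nr2f2, with 8.86 against 6.19 and 5.49. It alone was low in Lyst, a lysosomal trafficking protein, with 5.55 against 9.45 and 9.22, and in the RNA-binding protein Rbms1, with 4.20 against 8.68 and 7.70. All but Tnfrsf19 failed the group test, and in each of these genes, Tnfrsf19 included, 1 tumor differed from the rest.

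**Figure D3:**
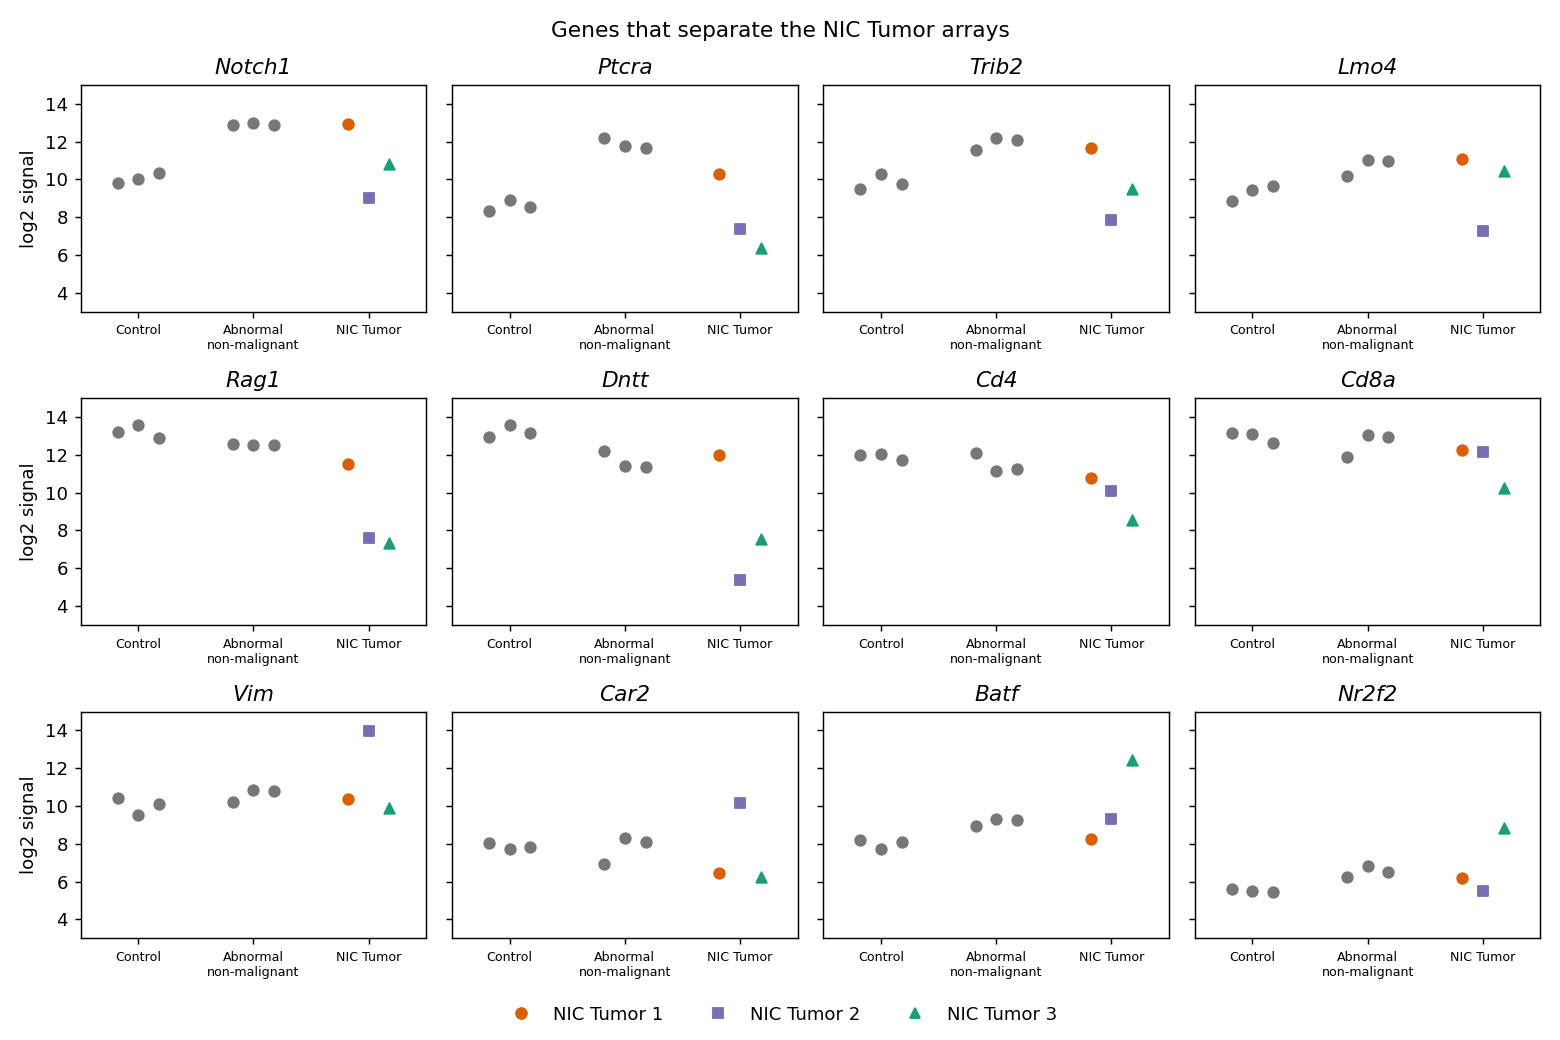
Log2 signal of 12 genes on each array, with controls and non-malignant arrays in grey and the 3 tumors in colour. At least 1 tumor lies apart from the others in every panel, for example at 12.920, 9.001 and 10.807 for Notch1. In some panels the other 2 nearly coincide, as NIC Tumor 2 and 3 do at 7.62 and 7.36 for Rag1.

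The Myc pair rose. Mycn, the Myc paralog of early progenitors, was 8.20, 9.32 and 7.90 in controls and 12.68, 13.76 and 13.14 in tumors, a difference of 4.72 (SE 0.42, limma adjusted p = 0.00382), and held throughout. A second, dimmer probe set of Mycn differed by -0.68. Myc was 7.44, 6.90 and 7.12 in controls and 8.81, 9.72 and 9.93 in tumors, a difference of 2.34 (SE 0.33, limma adjusted p = 0.013), and lost the call without any 1 control or NIC Tumor 2. NIC Tumor 1 had the lowest level of both. None of the other 10 members of the Max network passed the test, and the list's median was -0.31.

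Genes that build ribosomes and nucleotides rose widely. In ribosome biogenesis 14 of 26 genes rose, with no fall and a median difference of 1.32; in 23 of the 26 the tumors lay above all controls, against 18.2% of all genes. Pes1, which processes the large-subunit ribosomal RNA, was 7.79, 7.50 and 7.54 in controls and 9.04, 9.32 and 9.02 in tumors, a rise of 1.52 with adjusted p = 0.0103. Mybbp1a, a nucleolar protein, was 8.65, 8.05 and 8.61 in controls and 10.20, 11.08 and 11.09 in tumors, a rise of 2.35. Npm1, nucleophosmin, was 11.74, 11.61 and 11.18 in controls and 12.66, 12.91 and 12.93 in tumors, a rise of 1.33, and held throughout. The median of the list was 0.77 in NIC Tumor 1, 1.64 in NIC Tumor 2 and 1.39 in NIC Tumor 3, lowest in the tumor nearest to the controls. With 1 array left out, the count of risen genes ran from 1 without Control 3 through 3 and 4 without Control 2 or 1 and 5 and 8 without NIC Tumor 2 or 3 to 21 without NIC Tumor 1.

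Polyamine, nucleotide and one-carbon synthesis had 10 of 24 genes risen and none fallen, with a median of 0.92. Srm, spermidine synthase, was 8.25, 7.61 and 8.09 in controls and 9.69, 10.98 and 10.92 in tumors, a rise of 2.55 (SE 0.38, limma adjusted p = 0.0153). Cad, which starts pyrimidine synthesis, was 8.18, 6.74 and 7.67 in controls and 9.53, 10.19 and 10.01 in tumors, a rise of 2.38, and Atic, which completes purine synthesis, rose by 1.29. These counts were 1, 1 and 0 without Control 1, 2 or 3, 14, 0 and 2 without NIC Tumor 1, 2 or 3. Mitochondrial ribosome and import genes had 6 of 21 risen (median 0.78), among them Hspd1, the mitochondrial chaperonin, at 10.876, 10.748 and 10.996 in controls and 11.762, 12.442 and 12.128 in tumors. Aminoacyl-tRNA synthetases had 3 of 18 risen (median 0.77), translation factors 3 of 17 (0.51), the TRiC chaperonin 3 of 11 (0.39) and the proteasome 2 of 23 (0.28), and none of these lists had a fallen member. Examples were Gars, glycyl-tRNA synthetase, up by 0.97, Eif2b3, an exchange factor subunit for initiation, up by 1.94, Cct6a, a chaperonin subunit, up by 0.87, and Psmd1, a proteasome cap subunit, up by 0.79. Over all genes, 3.76% rose and 2.56% fell. The counts of these last 5 lists were 0 without Control 1, 2 or 3 and 0 without NIC Tumor 2, and 4 to 14 without NIC Tumor 1. Of 9 housekeeping genes, 1 rose and none fell, with a median of 0.30, near those of the TRiC chaperonin and the proteasome. In 6 of the 9 the tumors lay above all controls and in 2 below.

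The hexamer CACGTG is the E-box that Myc binds with Max. It was searched in the 300 bases from 250 before to 50 after the start of each gene, using the first promoter listed by RefSeq (GRCm38.p6), where it reads the same on both strands. It occurred in 70 of 423 promoters of higher genes (16.5%), 27 of 276 of lower genes (9.78%) and 1025 of 10697 of all tested genes (9.58%). The median GC content of these promoters was 60%, 63.3% and 60.3%. Of the 129 ribosome, nucleotide, translation, chaperonin, proteasome, mitochondrial and glycolysis genes with a promoter, 23 held the hexamer, and of the 39 among them that rose, 11 did. The 4 of those 11 whose hexamer lies within the 100 bases before the start are shown, 5′ to 3′ on the gene's strand, with the hexamer in capitals. They are Atic (chr1:71557056-71557155, plus strand), Timm9, a mitochondrial import chaperone (chr12:71136676-71136775, minus strand), Hspd1 (chr1:55088244-55088343, minus strand) and Ldha, lactate dehydrogenase A (chr7:46845704-46845803, plus strand).
Atic: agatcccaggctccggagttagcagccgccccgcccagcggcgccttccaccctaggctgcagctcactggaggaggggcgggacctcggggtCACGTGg
Timm9: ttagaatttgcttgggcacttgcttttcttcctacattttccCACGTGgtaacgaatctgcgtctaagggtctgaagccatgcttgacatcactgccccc
Hspd1: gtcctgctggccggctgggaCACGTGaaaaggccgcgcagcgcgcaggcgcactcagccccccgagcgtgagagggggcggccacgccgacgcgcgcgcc
Ldha: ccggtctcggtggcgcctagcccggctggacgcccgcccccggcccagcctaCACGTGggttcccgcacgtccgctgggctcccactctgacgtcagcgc
Timm9 and Ldha each hold a second copy elsewhere in the 300 bases. The core letters of the RBPJ site, TGGGAA or TTCCCA on the other strand, occurred in 26.2% of promoters of higher genes, 18.5% of lower genes and 23.2% of all tested genes. A match is a description of the letters and not a site of binding, and these shares were not tested.

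Glycolysis and the pentose phosphate pathway had 7 of 16 genes risen and none fallen, with a median of 0.83 that was alike in the tumors (0.84, 0.87 and 0.68). Pkm, pyruvate kinase, was 10.97, 10.91 and 11.22 in controls and 12.41, 12.17 and 12.68 in tumors, a rise of 1.39 (SE 0.17, limma adjusted p = 0.00927). Ldha was 11.44, 11.36 and 11.54 in controls and 12.32, 12.38 and 12.55 in tumors, a rise of 0.97, and Aldoa, aldolase A, was 10.04, 10.08 and 10.44 against 11.53, 12.12 and 12.40, a rise of 1.83. The groups were narrow and well apart in these 3 genes. The count was 0, 3 and 2 without Control 1, 2 or 3 and 4 without NIC Tumor 2 or without NIC Tumor 3. Oxidative phosphorylation had 2 of 22 risen (median 0.38), against 3.76% over all genes, with Atp5g1, an ATP synthase subunit, up by 1.22. The median of the housekeeping list was 0.30. Fasn, fatty acid synthase, rose by 1.69, against Abca1 down in the same sterol and lipid list. Of the amino acid transporters, Slc7a5, which carries large neutral amino acids, rose by 1.26, while Slc38a2, a glutamine carrier, was 11.42, 11.65 and 11.39 in controls and 9.91, 9.45 and 8.94 in tumors and fell by 2.05. Slc7a11, the cystine carrier, fell by 1.46 and held throughout. Slc38a2 lost the call without any 1 control, Atp5g1 without any 1 control or NIC Tumor 2, Fasn without Control 2 or 3 or NIC Tumor 2, and Slc7a5 without any array but NIC Tumor 1.

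The program of CD4+CD8+ thymocytes was lower, and here the tumors parted. Of 12 marker genes, 6 fell and none rose, with a median of -2.03, and in 10 of the 12 the tumors lay below all controls, against 14.3% of all genes. The median was -1.20 in NIC Tumor 1, -2.77 in NIC Tumor 2 and -3.13 in NIC Tumor 3. Rag1, which with Rag2 cuts DNA in V(D)J recombination, was 13.22, 13.58 and 12.89 in controls and 11.50, 7.62 and 7.36 in tumors, a difference of -4.40 (SE 1.01, limma adjusted p = 0.0489). Rag2 was 9.28, 10.20 and 9.38 in controls and 7.11, 5.85 and 6.08 in tumors, a difference of -3.27 with adjusted p = 0.00829, and held throughout. Ccr9, the chemokine receptor of thymocytes, was 12.02, 12.48 and 12.02 in controls and 9.12, 7.97 and 5.35 in tumors, a difference of -4.70 with adjusted p = 0.0269. Plxnd1, a semaphorin receptor, was 10.32, 10.61 and 10.46 in controls and 8.49, 5.99 and 5.41 in tumors. Arpp21 fell by 1.95 and Themis, an adaptor for positive selection, by 1.19, each to a like level in all tumors. The coreceptors did not pass the test. Cd4 was 12.01, 12.04 and 11.71 in controls and 10.76, 10.06 and 8.57 in tumors (adjusted p = 0.0522), and Cd8a was 13.17, 13.11 and 12.66 against 12.27, 12.13 and 10.27 (adjusted p = 0.133). Their group ranges do not overlap, and both are lowest in NIC Tumor 3. Cd8b1 differed by -1.70 (adjusted p = 0.0728) and Dntt by -4.91 (adjusted p = 0.0855). The count of fallen markers was 1 without any 1 control, 2 without NIC Tumor 2, 5 without NIC Tumor 3 and 9 without NIC Tumor 1. Rag1, Plxnd1 and Themis were called in 1 of the 6 fits, the one without NIC Tumor 1, while Ccr9 was lost without any 1 control or NIC Tumor 2 and Arpp21 without any 1 control. The highest limma adjusted p was 0.161 for Rag1, 0.117 for Plxnd1 and 0.11 for Ccr9.

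Against the non-malignant arrays, in a fit over all 9 arrays in which 4.23% of genes were called, the same genes divided. Rag2 averaged 9.40 in the non-malignant group, like the controls, and the tumors differed by -3.05 (limma adjusted p = 0.00319). Ptcra averaged 11.86 there, and the tumors differed by -3.84 (adjusted p = 0.0336). Dsp averaged 12.22 there, and the tumors differed by -1.94 (adjusted p = 0.0468). Il2ra, Dtx1, Hes1 and Mycn averaged 10.11, 13.21, 10.20 and 13.57 there, and the tumors differed by 0.56, -0.42, -0.51 and -0.38, with limma adjusted p from 0.146 to 0.533. On simulated data for tumors against controls the same fit made 29.4 false calls per draw, and the comparison with the non-malignant group was not simulated.

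Other genes of T cell receptor assembly and signalling went down singly. Of 12 V(D)J recombination and pre-T cell receptor genes, 4 fell and none rose (median -0.87). Cd247, the CD3 zeta chain, was 11.72, 12.18 and 11.78 in controls and 10.72, 9.52 and 9.16 in tumors, a difference of -2.09 on the log2 scale, and Syk, a kinase of the pre-T cell receptor, was 7.93, 7.91 and 8.22 against 6.14, 6.63 and 5.69, a difference of -1.87. Of 18 T cell receptor signalling genes, 1 rose and 1 fell (median -0.50). Fyn, a Src-family kinase, was 10.84, 10.20 and 10.06 in controls and 12.21, 12.61 and 12.30 in tumors, a rise of 2.01 with adjusted p = 0.00745, and held throughout. Rasgrp1, which activates Ras downstream of the receptor, was 11.13, 11.68 and 11.19 in controls and 9.44, 9.34 and 8.35 in tumors, a difference of -2.29. Cd5, which dampens receptor signals, fell by 1.73. Runx3, a factor of CD8 lineage choice, was 5.72, 5.96 and 5.90 in controls and 7.54, 8.63 and 8.74 in tumors, a rise of 2.45 with adjusted p = 0.0112. It was the only gene of the 21 T lineage transcription factors that passed; Bcl11b, a T lineage commitment factor, differed by -1.68 (adjusted p = 0.0632). Among these genes Rasgrp1, Syk and Runx3 lost the call without any 1 control, and Cd247 and Cd5 without any array but NIC Tumor 1. The 4 falls of the V(D)J list became 1 without any 1 control, 2 without NIC Tumor 2 or 3, and 7 without NIC Tumor 1.

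Some genes of later T cells rose. The mature T cell list had 4 of 10 genes risen, with no fall (median 1.30). At an unadjusted limma p under 0.05, 6 were higher and 1 lower. Gimap4, a GTPase of T cell survival, was 7.620, 7.784 and 7.427 in controls and 10.374, 10.998 and 11.168 in tumors, a rise of 3.24 (SE 0.25, limma adjusted p = 0.00301). S1pr1, the receptor that lets thymocytes leave the thymus, was 5.55, 6.12 and 6.40 in controls and 8.50, 8.68 and 9.43 in tumors, a rise of 2.84, and Klf2, which drives its expression, was 8.19, 7.13 and 8.35 against 10.27, 10.49 and 11.04, a rise of 2.71. The integrin subunit Itgb7 rose by 1.05. Of the 8 GIMAP GTPases only 1, Gimap4, rose. Gimap8 differed by -1.20 (limma adjusted p = 0.0537), with the tumors below every control. Gimap4 and S1pr1 held throughout, Klf2 lost the call without Control 1, Itgb7 without any 1 control or NIC Tumor 2, and the count of the list was 2 to 5 with 1 array left out, lowest without Control 1. Ccr7, which guides T cells to lymph nodes, lay higher by 2.61 and 3.22 in NIC Tumor 1 and 3 but by 0.30 in NIC Tumor 2, and did not pass. Of 11 cytotoxic genes, Prf1, perforin, rose by 2.28 and Cst7 by 1.26, both lost without any 1 control or NIC Tumor 2. Another probe set of Prf1 differed by 0.18. Gzma, granzyme A, was 9.20 to 9.30 in controls and 12.92, 9.96 and 12.82 in tumors and did not pass (adjusted p = 0.073).

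Genes of antigen presentation by MHC class I rose in 5 of 12 cases with none fallen, with a median of 1.02. H2-K1, a class I heavy chain, was 10.30, 10.51 and 10.30 in controls and 11.82, 11.90 and 11.92 in tumors, a rise of 1.51 (SE 0.14, limma adjusted p = 0.00398), and held throughout. Psmb10, an immunoproteasome subunit, was 9.30, 9.20 and 9.27 in controls and 10.35, 10.32 and 10.85 in tumors, a rise of 1.25. The tumors were closely alike in these genes. Class I genes are a multigene family, so probes may read more than 1 member. The count was 1 without any 1 control, 2 without NIC Tumor 2 and 3 without NIC Tumor 3. The 16 genes of the type I interferon response had none called by limma in either direction, with 2 higher and 2 lower at an unadjusted p under 0.05. Of 8 guanylate-binding and related GTPases, Gbp7 fell, from 8.62 to 8.88 in controls to 7.24, 6.79 and 6.25 in tumors, and lost the call without any 1 control.

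Il2ra, the interleukin-2 receptor alpha chain, was 5.34, 5.0 and 4.82 in controls and 10.56, 10.46 and 10.97 in tumors. Of 22 interleukin receptor and JAK-STAT genes, 1 rose and 4 fell (median -0.08). Il4ra was 9.13, 8.95 and 9.25 in controls and 6.68, 6.76 and 5.37 in tumors, a difference of -2.84 with adjusted p = 0.0112. Stat4, which carries interleukin-12 signals, was 8.06, 8.32 and 7.93 against 6.32, 4.80 and 6.20, a difference of -2.33, Il21r fell by 2.06, and the inhibitor Socs1 fell by 1.5. Il4ra lost the call without Control 1 or 3, Stat4 and Il21r without any 1 control, and Socs1 also without NIC Tumor 2. Death receptor and caspase genes had 3 of 15 fallen and none risen (median -0.55). Fas was 9.14, 9.18 and 8.82 in controls and 7.30, 6.43 and 7.37 in tumors, a difference of -2.01 with adjusted p = 0.0145. Cflar, an inhibitor of caspase-8, fell by 1.46 and Tnfrsf1a, a tumor necrosis factor receptor, by 1.21. The receptor Fas and the inhibitor Cflar thus both fell. The count was 0 without Control 1, 2 or 3 and 2 without NIC Tumor 2 or 3. In the BCL2 family, 1 of 13 fell: the survival gene Bcl2l1 was 10.43, 10.73 and 10.73 in controls and 9.38, 8.14 and 8.35 in tumors, a difference of -2.01 that lost the call without any array but NIC Tumor 1.

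Cell-cycle genes gave few calls, in both directions, beside 3.76% of all genes higher and 2.56% lower. Of 21 G2/M genes, 4 fell and none rose (median -0.40), while Control 2 lay 0.73 below the other controls in the same list. Top2a, topoisomerase II alpha, was 12.03, 11.70 and 12.18 in controls and 11.12, 10.98 and 10.96 in tumors, and Mki67, the proliferation marker Ki-67, was 12.22, 11.61 and 11.98 against 11.32, 10.76 and 10.94. Both stayed bright in the tumors. Of 23 G1/S genes, Pcna, Rrm2 and Ccne2 fell by 0.48, 0.96 and 2.48, and Mcm3, a replicative helicase subunit, rose by 1.33. The 4 other probe sets of Mcm3 that passed the brightness filter differed by 0.02 to 0.55. Among the D cyclins and their partners, Ccnd3, the D cyclin of thymocytes, was 13.01, 12.34 and 12.80 in controls and 11.14, 11.03 and 10.47 in tumors, a difference of -1.84 with adjusted p = 0.0108. Cdk4, its kinase, was 10.18, 10.05 and 10.33 against 10.94, 11.57 and 11.56, a rise of 1.17, and the inhibitor Cdkn2d fell by 1.72. The 4 G2/M calls were all lost without Control 1 or Control 3 and without NIC Tumor 2 or 3, and 1 was left without Control 2. Rrm2 lost its call on leaving out Control 1 or 3 or NIC Tumor 2 or 3, and Ccnd3 lost its call without Control 1 or 3. Cdk4, Mcm3 and Ccne2 kept theirs only without NIC Tumor 1, and Pcna and Cdkn2d lost theirs without any 1 control or NIC Tumor 2.

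Chromatin and regulatory genes gave calls in both directions, beside 3.76% of all genes higher and 2.56% lower. Of 32 chromatin genes, 2 rose and 3 fell (median -0.54). In 14 of the 32 the tumors lay below all controls and in 3 above, against 14.3% and 18.2% of all genes. Tet2, which oxidizes 5-methylcytosine, was 7.29, 7.88 and 6.69 in controls and 4.98, 5.29 and 5.06 in tumors, a difference of -2.18 with adjusted p = 0.0121. Kat2a, a histone acetyltransferase, rose by 1.58 and Dnmt3b, a de novo DNA methyltransferase, by 1.54, while Hdac7 and Arid1a fell by 0.86 and 0.99. Another probe set of Dnmt3b differed by 0.21. Tcf4, an E protein, was 7.18, 7.44 and 7.60 in controls and 5.37, 5.52 and 5.87 in tumors, a difference of -1.82 that held throughout, and Id1, an E protein inhibitor, was 7.47, 6.90 and 7.15 against 9.65, 9.34 and 8.07, a rise of 1.85. Mdm4, an inhibitor of p53, was 8.80, 9.20 and 8.48 against 7.92, 7.33 and 6.68, a difference of -1.52, but its 3 other probe sets differed by -0.02 to 0.08. Mdm4 lost the call without any array but NIC Tumor 1, Id1 without any 1 control or NIC Tumor 2, and Tet2 without Control 1, while Kat2a and Dnmt3b lost it without any 1 control, Hdac7 also without NIC Tumor 2, and Arid1a on leaving out any array but NIC Tumor 1. Xbp1, a factor of the unfolded protein response, was 10.22, 10.85 and 10.58 in controls and 8.86, 8.36 and 7.83 in tumors, a difference of -2.20 that was lost without Control 2 or 3. Ctnna1, alpha-catenin, was 8.22, 8.06 and 8.20 against 5.41, 6.31 and 5.57, a difference of -2.39 that held throughout. Stress and signal lists gave 1 to 3 calls each: 2 higher and 1 lower of 12 heat shock genes, 2 and 1 of 22 genes of endoplasmic reticulum and amino acid stress, 2 and 1 of 17 immediate early genes, 0 and 1 of 18 NF-kappaB genes, 1 and 1 of 17 DNA repair genes, and 0 and 1 of 14 p53 pathway genes, the last being Mdm4. Of 20 genes of the PI3K, Akt and Foxo pathway and 20 T-ALL driver genes, none passed limma's adjusted threshold. At an unadjusted p under 0.05, 7 and 5 of them were lower and 0 and 1 higher.

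The erythroid and myeloid lists had their highest medians on NIC Tumor 2, a single array without a test. The 6 erythroid genes had a median difference of 0.22, 2.52 and 0.51 in NIC Tumor 1 to 3, and none passed the test. Slc4a1, the red cell anion exchanger, was 5.39, 5.85 and 5.65 in controls and 6.30, 9.18 and 6.46 in tumors. Alas2, the erythroid enzyme that starts heme synthesis, was 6.50, 5.63 and 5.24 against 7.19, 8.56 and 6.39. The 13 myeloid genes had medians of 0.09, 1.03 and 0.51. Ctss, a lysosomal protease, rose by 2.51, with a call lost on leaving out any array but NIC Tumor 1, and S100a8 was 4.96, 8.35 and 5.64 in tumors against 4.76 to 6.07 in controls. Lyz2, the macrophage lysozyme, lay at 6.78 to 7.11 in controls and 6.95 to 7.42 in tumors. The B cell, antigen-presenting, megakaryocyte and stromal lists had no call in either direction, with 2 B cell genes lower and 1 antigen-presenting gene higher at an unadjusted p under 0.05. The part of red and myeloid cells in the values of NIC Tumor 2 was not tested.

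**Figure D4:**
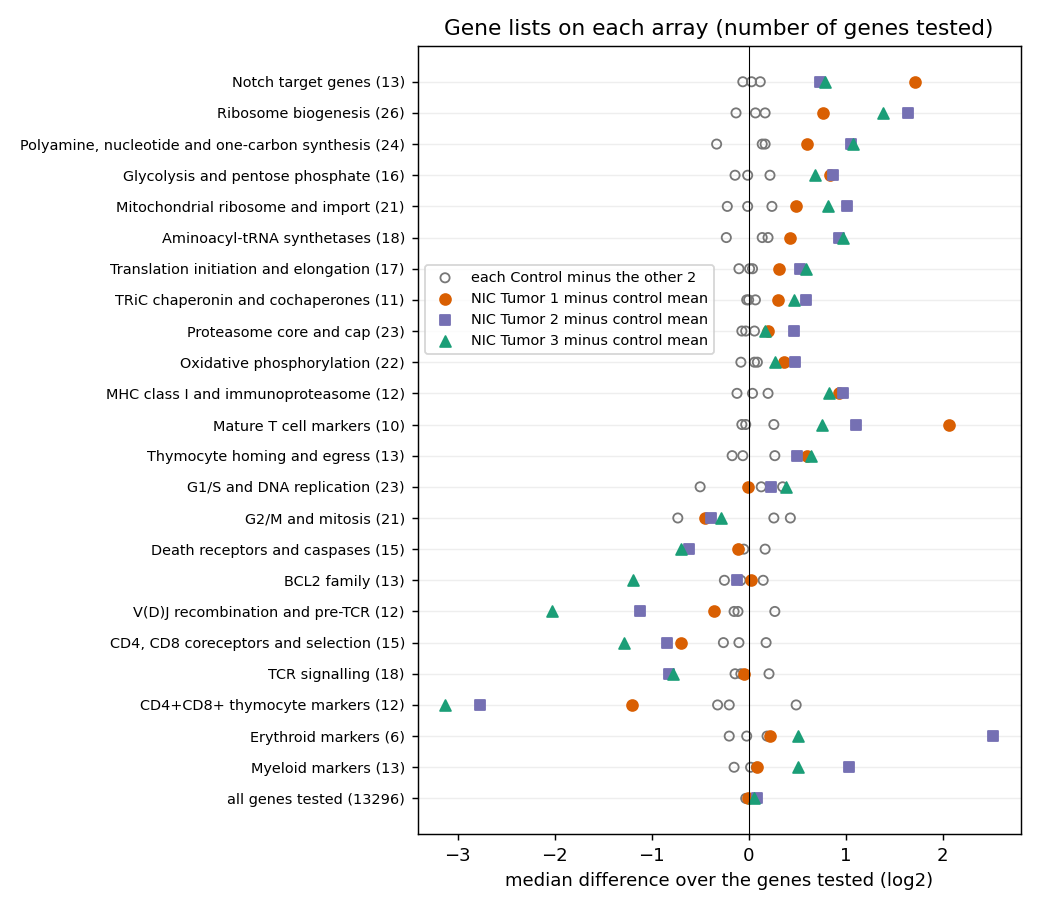
Median log2 difference of each gene list on each tumor array from the control mean (coloured symbols), and of each control from the other 2 (open circles), with the number of genes tested. Growth lists lie to the right in all 3 tumors, the CD4+CD8+ thymocyte markers lie at -1.20, -2.77 and -3.13, and the erythroid list stands out on NIC Tumor 2 alone, at 2.52.

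Karyotypes and array CGH of the series were not analysed here, and the expression differences were set out by chromosome instead. After subtracting each array's median difference, the median of chromosome 10 was 0.12 in NIC Tumor 2 with all genes tested. Among the 280 genes of chromosome 10 with a control mean of at least 8, a limit chosen after the data were seen, it was 0.30 in NIC Tumor 2, 0.01 in NIC Tumor 1 and -0.11 in NIC Tumor 3. Of these genes, 64.6% lay above the array's median difference, and the other chromosomes of NIC Tumor 2 ran from -0.16 to 0.08. NIC Tumor 3 had a wider range, from -0.29 on chromosome X to 0.23 on chromosome 7, and NIC Tumor 1 stayed between -0.04 and 0.09. The controls, each against the other 2, stayed between -0.10 and 0.09, with Control 3 at 0.09 on chromosome 7 and -0.09 on chromosome 13, where NIC Tumor 3 lay at 0.23 and -0.26. These medians are a description of single arrays, without a test, and copy number was not measured by them.

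**Figure D5:**
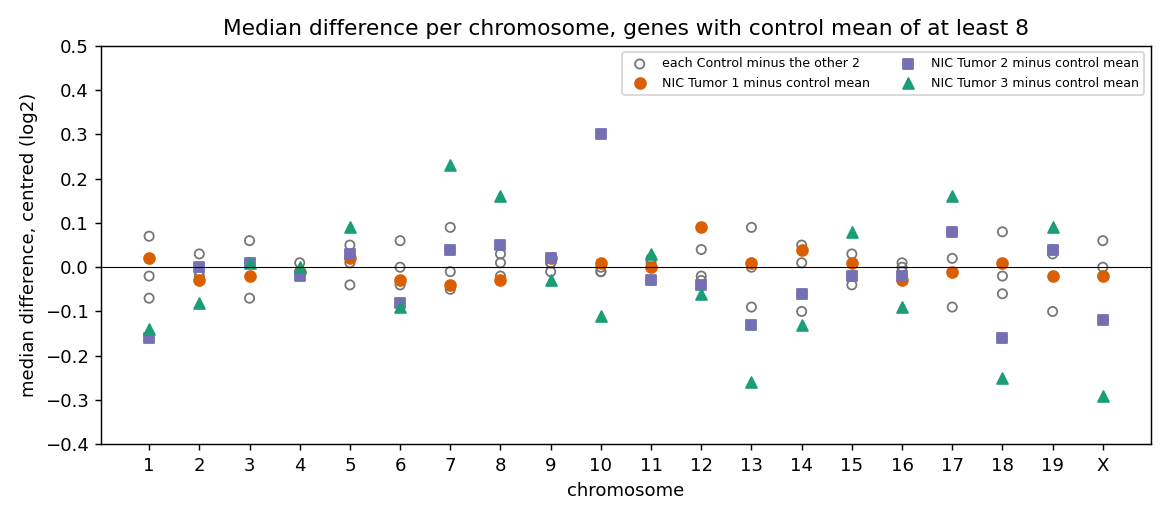
Median log2 difference per chromosome for genes with a control mean of at least 8, after subtracting each array's overall median; symbols are the 3 tumors against the control mean, and open circles each control against the other 2. Chromosome 10 of NIC Tumor 2 lies at 0.30, while NIC Tumor 1 stays within -0.04 and 0.09 throughout.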

How the data were processed

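The authors deposited log2 values of 45101 probe sets. The background correction and normalization are not given in the sources used here, and base 2 was inferred from the range of the values (2.68 to 14.57). Per the labels' protocols, RNA was amplified to biotin-labelled cRNA and the arrays were processed by a core facility. Probe sets with 1 symbol were assigned to genes through Entrez IDs, and the probe set with the highest mean over 9 arrays stood for each gene. Other probe sets of a gene could differ less, such as -0.07 for Il4ra, -0.09 for Cflar and -0.16 for Xbp1. A gene was tested if 3 or more of the 9 arrays put it over their own 40th percentile. limma 3.58.1 (R 4.3.3; tables in Python 3.11.15 with pandas 2.3.3) was fitted to the 6 arrays, two-sided, with a variance trend (residual df 4, prior df 3.3) and Benjamini-Hochberg adjustment over all 13296 genes. A 9-array fit gave the values against the non-malignant group. Precision is limited by the number of arrays; with 3 against 3, the smallest p that exact permutation allows is 0.1.

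On simulated data of 13296 genes with 200 changed, the 6-array fit recovered 22.4% of 2-fold and 87.2% of 4-fold changes with 7.8 false calls per draw; the 9-array fit recovered 56.4% and 92.8% with 29.4 false calls. The members, lists and tests were chosen with earlier results of these data known. The genes named are the 12 largest rises and falls among called genes whose groups do not overlap (without clone, Rik, Gm and predicted names), 3 per list with the smallest adjusted p, 5 farthest above and 5 farthest below the other tumors for each tumor, and the genes the study is about, not all of them printed; other list members were chosen after their values were seen. Alternatives changed the arrays fitted, the variance model, scaling, filter, probe set, threshold and replicate block. Genes without a probe set of 1 symbol were not analysed here.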

Additional observations from a re-analysis of the deposited data

How the results depend on the processing

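The counts of called genes changed with array weights, the threshold and the arrays entered. Beside 841 (500 higher, 341 lower), all 9 arrays gave 2083 (1127, 956), array weights 4863 (2911, 1952), no brightness filter 529 (324, 205) and an adjusted p under 0.01 gave 92 (59, 33). Median centring gave 579 lower genes. Quantile normalization, the filter at the 60th percentile, no variance trend and the other rules for probe sets stayed within 1.5 times. With 1 array left out the counts ran from 88 to 2483 in all, 56 to 1203 higher and 32 to 1280 lower, lowest without Control 3 and highest without NIC Tumor 1. With 2 arrays in a group, the fit has fewer degrees of freedom. The replicate number as a block gave 473 calls (253, 220), of which 421 were among the 841. Same-numbered tumors and controls correlated at 0.072, -0.044 and 0.158 in their deviations. With 3 arrays per group, these values cannot tell whether same-numbered arrays share a batch or an origin.

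Direction turned in genes on which the tumors disagree. With array weights, which favour NIC Tumor 2, Notch1 was -0.62, Car2 1.72 and Lmo4 -1.47, and with the mean of probe sets Trib2 was 0.24. With 1 array left out, Notch1 ran from -0.14 to 1.82, Ptcra from -1.70 to 0.25, Car2 from -1.53 to 0.42, Lmo4 from -0.42 to 1.48 and Trib2 from -1.17 to 0.71. Without the filter, the chromosome 10 median of NIC Tumor 2 was 0.07 and the X medians of NIC Tumor 2 and 3 were -0.08 and -0.04; with control means of at least 8 they were 0.30 for chromosome 10 and -0.29 for X in NIC Tumor 3. The causes were not tested.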
